A study of Sus scrofa with 10 samples.

Results

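TIMP1, TIMP2 and TIMP3, 3 of the 4 tissue inhibitors of metalloproteases, were followed in porcine fetal fibroblasts that had been parted by the surface glycan SSEA-1 (the Lewis X sugar). All probe sets carrying one of these symbols alone in the platform annotation were taken, 6 of the 24123 on the array, for 3 of the 6765 genes it names: 1 for TIMP1, 2 for TIMP2 and 3 for TIMP3. The 3 genes were picked because they had read higher in the sorted SSEA1+ fraction than in the SSEA1- fraction of these same arrays, so their values in that contrast are a description and carry no test. The cells were grown from the body of day 24 fetuses, head left out, of Danish Landrace/Yorkshire x Duroc crosses, and had no treatment other than bead sorting. RNA of 5 SSEA1+ and 5 SSEA1- fractions was read on 1 Affymetrix porcine array each, and both fractions carry replicate numbers 1 to 5. Neither the number of fetuses behind the replicates nor the purity of the sort is given in the sources used here, and the series calls the cells a fibroblast cell line, so spread and p-values concern these samples.

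TIMPs are small secreted proteins that block the active site of matrix metalloproteases (MMPs), the enzymes that cut collagens and other matrix proteins. TIMP1 and TIMP2 are soluble, and TIMP2 also takes part, with the membrane protease MMP14, in the activation of pro-MMP2 at the cell surface. TIMP3 is held in the matrix through sulfated sugar chains and also blocks several ADAM and ADAMTS proteases, among them the sheddase ADAM17. Fibroblasts are a known source of TIMPs and of several MMPs.

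Values are log2 signals, in which a step of 1 is a doubling, and a signal was called above background when it passed 0.35, the 95th percentile of the signals of 23 controls for sequences foreign to the sample. Array medians lay between 1.15 and 1.19, and between 69.3% and 72.5% of probe sets on an array passed background. All 11 measured fibroblast markers of 15 listed, VIM, LUM and PDGFRB among them, passed background on all 10 arrays, and their mean log2 signal per array ranged from 7.01 to 7.23 in SSEA1+ and from 6.98 to 7.16 in SSEA1-. Of these 11 markers 6 had a positive and 5 a negative difference, and COL1A2, a collagen chain, was the single one called. It was higher in SSEA1+ by 1.19 ± 0.13 (SE, limma adjusted p = 0.000434). No marker of the 5 other cell types was called in limma. The leukocyte genes PTPRC and SPI1 and the endothelial genes CDH5 and TEK lay at or below background on every array. However, 5 of 8 measured endothelial, 1 of 6 blood and 4 of 4 neural markers passed background on all 10 arrays. In SSEA1+ and SSEA1- the brightest of each, EGFL7, HBB and MAP2, read 2.13 and 2.16, 4.38 and 4.54, and 3.04 and 3.08. The epithelial or muscle markers KRT8, ACTA2 and DES were well above background in both fractions. Their log2 signals in SSEA1+ and SSEA1- were 5.42 and 5.47, 10.90 and 11.01, and 7.20 and 6.92. Of 8 measured epithelial markers 5 had a positive and 3 a negative difference, from -0.089 to 0.40 around a median of 0.12. KRT19 read 0.40 ± 0.16 and EPCAM 0.25 ± 0.084 higher in SSEA1+ (SE, limma adjusted p = 0.166 and 0.105). EPCAM passed background on 5 of 10 arrays only. The 3 negative ones were KRT18 at -0.089 ± 0.24, KRT8 at -0.055 ± 0.34 and ESRP1 at -0.038 ± 0.21 (SE). Whether epithelial cells were present, and any part of theirs in the TIMP differences, was not tested. Summed over the list on the linear scale, the epithelial markers ran from 39.4 to 98.7 in SSEA1+ and from 40.0 to 111 in SSEA1-, and the muscle markers from 2008 to 2429 and from 1972 to 2537.

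TIMP1, the soluble inhibitor that also binds pro-MMP9, has a single probe set. It read 7.36, 7.18, 7.47, 7.36 and 7.32 on the SSEA1+ arrays of replicates 1 to 5, and 6.99, 6.91, 7.04, 7.07 and 7.03 on the SSEA1- arrays. The lowest SSEA1+ array, replicate 2, stood 0.11 above the highest SSEA1- array, so the fractions did not overlap, and replicate 2 was the lowest in both. The mean was 7.34 ± 0.11 against 7.01 ± 0.061 (SD, n = 5 each), a log2 difference of 0.33 ± 0.070 (SE) or 1.26-fold. Within same-number pairs the difference was 0.37, 0.27, 0.43, 0.29 and 0.29. In bulk RNA like this, a larger share of cells with a transcript and more of it per cell cannot be told apart.

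TIMP2, the inhibitor tied to pro-MMP2 activation, was read by 2 probe sets that both lay higher in SSEA1+. The brighter one gave 6.93, 7.02, 7.09, 6.84 and 6.95 in SSEA1+ and 6.41, 6.59, 6.61, 6.44 and 6.10 in SSEA1-. The gap between the fractions was 0.24, and SSEA1- replicate 5 was the lowest array by a wide margin. Its means were 6.97 ± 0.094 and 6.43 ± 0.20 (SD, n = 5 each), a log2 difference of 0.54 ± 0.096 (SE) or 1.45-fold, and without SSEA1- replicate 5 the difference was 0.45. The pair differences of 0.51, 0.43, 0.49, 0.40 and 0.85 show that replicate 5 gave the largest.

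The second TIMP2 probe set read 6.90, 6.67, 6.93, 6.75 and 6.82 in SSEA1+ against 6.50, 6.37, 6.53, 6.52 and 6.37 in SSEA1-. Here too the fractions were apart, by 0.14, but no SSEA1- array stood away from the rest. Its log2 difference was 0.35 ± 0.072 (SE) or 1.28-fold, from means of 6.81 ± 0.11 and 6.46 ± 0.078 (SD, n = 5 each). Both probe sets therefore lay on the same side in all 5 pairs, while the difference on the brighter one was 1.45-fold against 1.28-fold.

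TIMP3, the matrix-bound inhibitor of MMPs and ADAMs, gave the largest differences of the 3 genes on its 2 probe sets above background. On the brighter one the SSEA1+ arrays read 2.27, 1.95, 2.38, 1.62 and 2.21 and the SSEA1- arrays 1.29, 1.17, 1.34, 1.16 and 1.24. The SSEA1- arrays lay close together and the SSEA1+ arrays spread widely, with an SD of 0.31 against 0.079 (n = 5 each). SSEA1+ replicate 4 was the lowest of its fraction and still 0.27 above the highest SSEA1- array. The log2 difference was 0.84 ± 0.12 (SE) or 1.80-fold, and 0.96 without SSEA1+ replicate 4. By pair it was 0.98, 0.78, 1.04, 0.46 and 0.97. The deposited signals reach down to -0.46 and the SSEA1- signal of TIMP3 lay near the array medians; the background step behind such low values is not given, and its bearing on the TIMP3 folds was not tested.

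A second TIMP3 probe set also had a wide spread in SSEA1+ and a narrow one in SSEA1-. It read 2.29, 1.87, 2.00, 1.32 and 2.18 in SSEA1+ and 1.16, 1.32, 0.99, 1.26 and 1.31 in SSEA1-, so replicate 4 was again the lowest SSEA1+ array. The fractions were separated by 0.0032 only, and the pair difference of replicate 4 was 0.055 where the others ran from 0.55 to 1.13. The log2 difference over all arrays was 0.73 ± 0.15 (SE) or 1.65-fold, and 0.88 without SSEA1+ replicate 4. The third, annotated to the same accession as the second, passed background on 1 of 10 arrays. It gave 0.28 ± 0.11 and 0.15 ± 0.10 (SD, n = 5 each) with overlapping fractions, and SSEA1+ replicate 4 was the lowest of its fraction there as well.

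**Figure D1:**
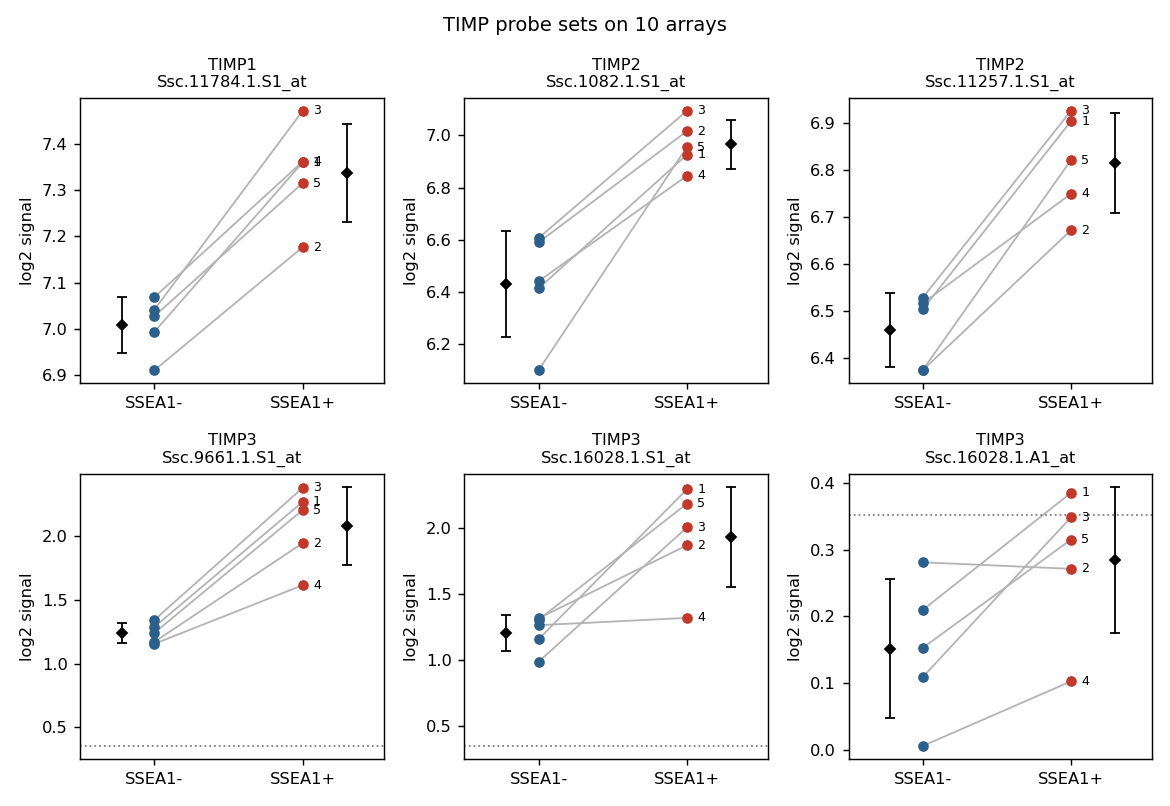
Log2 signal of the 6 TIMP probe sets on the 10 arrays, SSEA1- in blue and SSEA1+ in red, with grey lines joining arrays of one replicate number (written beside the SSEA1+ point). Black diamonds and bars are the mean and SD of 5 arrays, the dotted line is the background of 0.35, and the y axes differ between panels and do not start at 0; the fractions are apart in 5 panels and overlap in the last.

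In all, 5 of the 6 probe sets passed an adjusted p under 0.05 as higher in SSEA1+ in limma, beside 2.72% of all probe sets (6.2% in either direction and 3.48% as lower), and the same 5 had fractions that did not overlap, beside 3.2% of all probe sets. Because the genes were chosen on this contrast, nothing is read from these counts. The brighter TIMP3 probe set had the 47th largest positive difference of the 23935 probe sets that are not array controls, its second the 83rd, the brighter TIMP2 probe set the 212th, the other the 713th and TIMP1 the 847th. Without both arrays of replicate 1, of replicate 3 or of replicate 5, 2 of the 6 passed, beside 481, 461 and 384 of all 24123 probe sets. Each time these were the brighter probe sets of TIMP2 and TIMP3, and nothing is read from this either.

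The fourth family member, TIMP4, which is best known from heart, was at or below background on all 10 arrays on both of its probe sets. The means were 0.15 and 0.14 on one and 0.094 and 0.12 on the other, so no fold is given.

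Spread within a fraction set the probe sets apart from each other. TIMP1 and the second TIMP2 probe set had pooled SDs of 0.087 and 0.093, where the median over probe sets within 0.5 of their level was 0.11 and 0.12. The brighter TIMP2 probe set and the brighter TIMP3 probe set were more variable than 70.9% and 71.7% of probe sets near their level, and the second TIMP3 probe set more than 89.0%. Once the fraction means were removed, the 2 TIMP3 probe sets above background had a Pearson correlation of 0.74 over the 10 arrays. The third, above background on 1 of 10 arrays, correlated with them at 0.68 and 0.71. The TIMP2 pair correlated at 0.32, whereas the second TIMP2 probe set correlated at 0.77 with TIMP1 and at 0.66 with the brighter TIMP3 probe set. All probe sets of an array share its RNA, labelling and scaling, so these correlations are descriptions of 10 arrays.

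Control signals of the arrays also differed between the fractions. Poly-A controls are bacterial transcripts meant to be added to the RNA before labelling, and their mean log2 signal relative to the hybridisation controls was -3.13, -3.36, -2.66, -3.38 and -3.45 on the SSEA1+ arrays and -3.82, -4.25, -3.91, -3.80 and -4.32 on the SSEA1- arrays. The fractions did not overlap, and the difference of 0.82 had p = 0.00794 in an exact two-sided permutation test that moves arrays freely, the smallest p that 5 against 5 arrays allow. With same-number pairs kept together, the exact permutation p was 0.0625, the smallest that 5 pairs allow, and the level was higher in SSEA1+ in 5 of 5 pairs. The hybridisation controls, labelled transcripts meant to be added after labelling and the reference of this level, were themselves brighter in SSEA1+, at 6.75 to 7.17 against 6.21 to 6.60, a difference of 0.42 with the same exact permutation p of 0.00794 (0.0625 within pairs). Their mean correlated within fractions at 0.58 with TIMP1, at 0.62 and 0.77 with the TIMP2 probe sets, and at 0.36 and -0.052 with the TIMP3 probe sets above background (10 arrays, as descriptions). Within fractions the poly-A level correlated with the second TIMP2 probe set at 0.81, with TIMP1 at 0.66, with the brighter TIMP3 and TIMP2 probe sets at 0.52 and 0.45, and with the second TIMP3 probe set at 0.067 (10 arrays each, as descriptions). SSEA1+ replicate 3 had the highest poly-A level of all arrays and also the highest TIMP1 signal, the highest on both TIMP2 probe sets and the highest on the brighter TIMP3 probe set. On the second TIMP3 probe set that array read 2.00, below SSEA1+ replicates 1 and 5 at 2.29 and 2.18. Replicate 5 had the lowest poly-A level of the SSEA1+ arrays, -3.45.

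With the poly-A level as a covariate, which the model extrapolates because the fractions share no level, the log2 difference was 0.17 ± 0.13 for TIMP1, 0.33 ± 0.17 and 0.14 ± 0.12 for TIMP2, and 0.51 ± 0.21 and 0.67 ± 0.29 for TIMP3 (SE). None of the 6 probe sets was called in limma with that covariate, beside 12 of all 24123 probe sets. The 3′ minus 5′ signal of the ACTB and GAPDH controls, a sign of RNA and labelling quality, was 1.03 ± 0.039 in SSEA1+ and 1.09 ± 0.073 in SSEA1- (SD, n = 5 each; exact two-sided permutation p = 0.111). The part that the poly-A and hybridisation control signals have in the TIMP differences cannot be told apart from the sort.

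**Figure D2:**
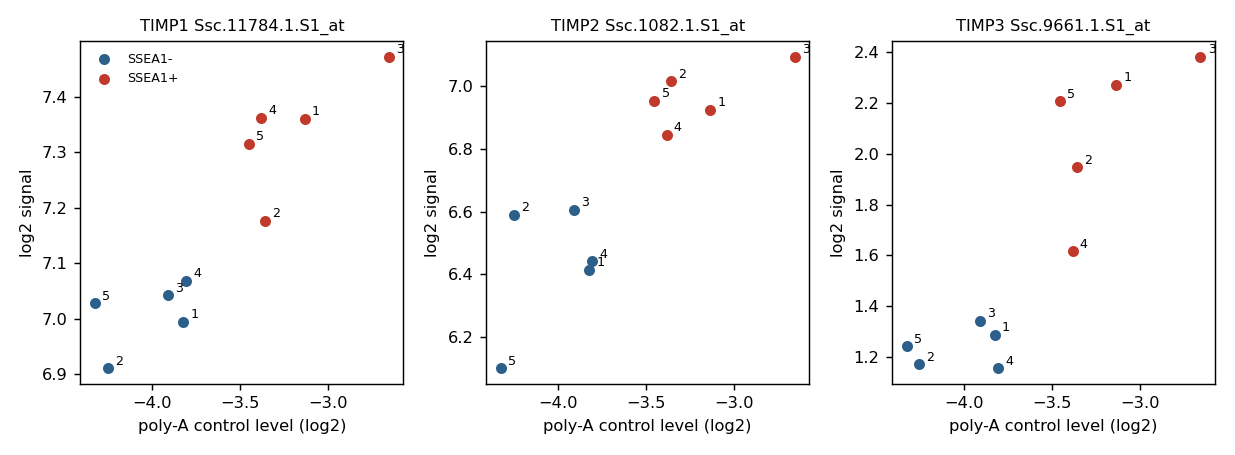
Log2 signal of the brightest TIMP1, TIMP2 and TIMP3 probe set against the poly-A control level of each array (mean log2 of poly-A controls minus that of hybridisation controls), 5 SSEA1- arrays in blue and 5 SSEA1+ arrays in red, with replicate numbers. The SSEA1+ arrays lie to the right of every SSEA1- array, between -3.45 and -2.66 against -4.32 and -3.80, and above them in each panel.

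Matrix metalloproteases are the main targets of the TIMPs. Of 23 listed matrix metalloproteases 8 were measured, 3 of them with a mean above background, and none was called in limma (adjusted p under 0.05), while 2 (25%) had an unadjusted p under 0.05, beside 23.8% of all genes. These 2 were MMP14 and MMP13, and MMP13 was below background on every array. MMP2, the gelatinase whose pro-form TIMP2 binds, read 4.45 ± 0.19 and 4.48 ± 0.16 (SD, n = 5 each), a log2 difference of -0.028 ± 0.10 (SE). MMP14, the membrane-type MMP that works with TIMP2 at the cell surface, read 3.76 ± 0.28 and 3.39 ± 0.27 (SD), a difference of 0.37 ± 0.15 (SE) that lay above 0 in 5 of 5 pairs. Its adjusted p in limma was 0.174, and 0.0438 once replicate number entered as a block.

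MMP1, an interstitial collagenase, was looked at after its values were seen because it was the most variable of these enzymes. It read 2.63 ± 0.87 and 3.29 ± 1.00 (SD, n = 5 each) and was lower in SSEA1+ in 5 of 5 pairs. The difference of -0.65 ± 0.46 (SE) had an adjusted p of 0.495 in limma, and of 0.0027 with the replicate block. MMP9 and MMP13 were near or below background, MMP9 at 0.27 and 0.33, MMP13 at 0.27 and 0.056 with no array above it.

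TIMP3 also blocks several of the sheddases and matrix proteases of the ADAM and ADAMTS families. Of 35 listed, 10 were measured, and 1 was called lower and none higher in limma, beside 4.18% and 3.21% of all genes. An unadjusted p under 0.05 was reached by 2 (20%), beside 23.8% of all genes. ADAMTS6, a secreted protease of the family, was the one called, and fell from 1.99 ± 0.19 to 1.28 ± 0.14 (SD, n = 5 each). The fall was 0.71 ± 0.099 (SE) on the log2 scale (limma adjusted p = 0.00164, lower in 5 of 5 pairs). ADAM17, the TNF sheddase blocked by TIMP3, read 2.02 ± 0.15 and 2.14 ± 0.065 (SD), a difference of -0.12 ± 0.081 (SE; adjusted p = 0.443), and its 3 dimmer probe sets gave -0.24, -0.029 and 0.037. ADAM10, the related sheddase, read 0.91 ± 0.25 and 1.10 ± 0.18 (SD), at -0.19 ± 0.12 (SE; adjusted p = 0.435). ADAMTS1, which cuts proteoglycans, read 2.85 ± 0.84 and 3.15 ± 0.76 (SD), at -0.29 ± 0.40 (SE; adjusted p = 0.762). SSEA1+ replicate 4 stood far above its fraction, at 4.22 where the others ran from 1.97 to 2.93, and without it the difference was -0.63 ± 0.32 (SE; limma adjusted p = 0.297); leave-outs of an array or a pair ran from -0.86 to -0.050.

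**Figure D3:**
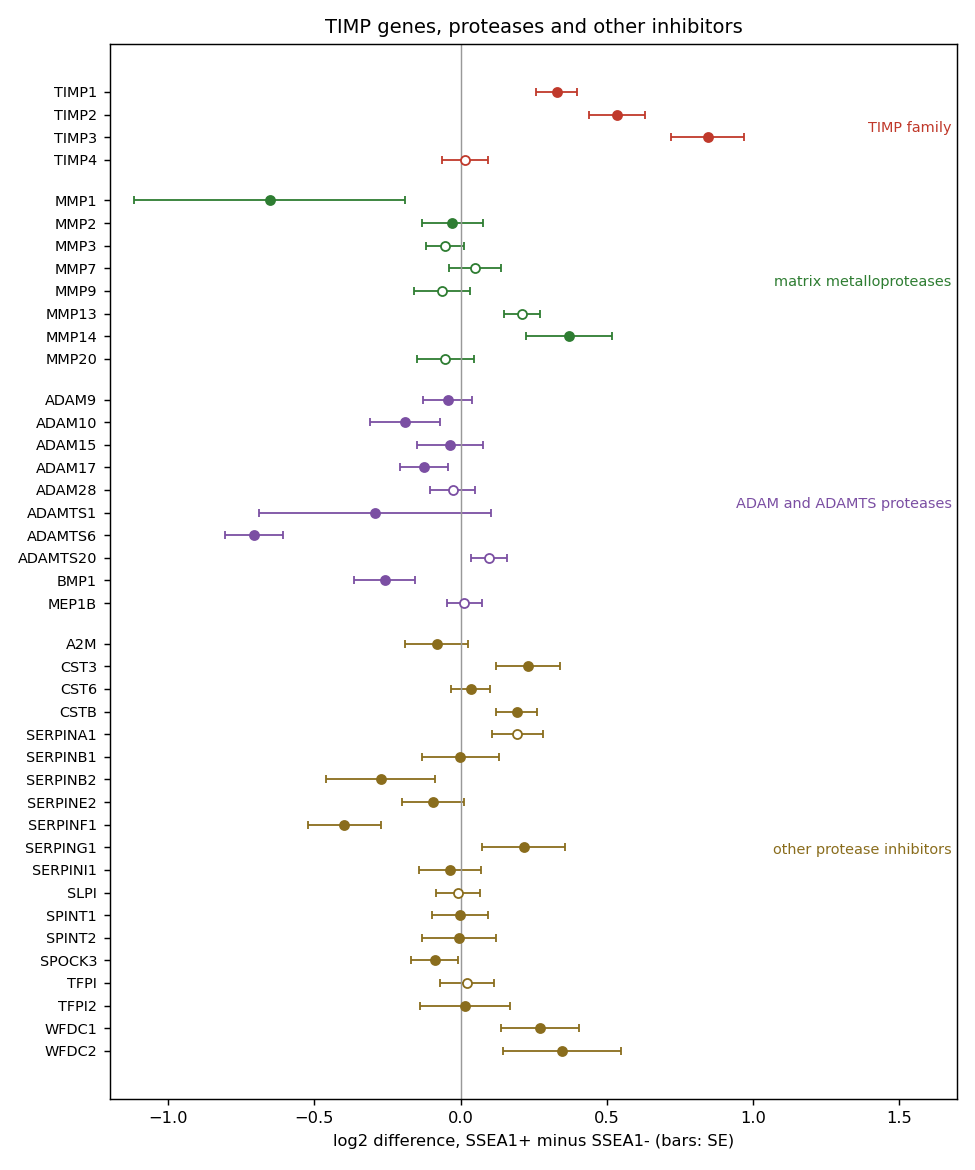
Log2 difference (SSEA1+ minus SSEA1-) with its SE for each measured gene of the TIMP family, the matrix metalloproteases, the ADAM and ADAMTS proteases and the other protease inhibitors, each read from its brightest probe set, 5 arrays per fraction. Open points have a mean at or below background in both fractions; the TIMP1, TIMP2 and TIMP3 points, chosen on this contrast, lie at 0.33, 0.54 and 0.84, and ADAMTS6 at -0.71.

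Inhibitors outside the TIMP family, mostly of serine and cysteine proteases, gave no call. Of 30 listed, 19 were measured, 9 with a positive and 10 with a negative difference around a median of -0.00038, and 3 (15.8%) had an unadjusted p under 0.05 in limma, beside 23.8% of all genes. SERPINF1, a secreted serpin also called PEDF and named here after its values were seen, read 7.86 ± 0.26 and 8.25 ± 0.19 (SD, n = 5 each), a difference of -0.40 ± 0.12 (SE) with an adjusted p of 0.0792, or 0.00541 with the replicate block. CST3, the cathepsin inhibitor cystatin C, also named after its values were seen, read 0.23 ± 0.11 higher (SE; adjusted p = 0.267) on its brightest probe set, and 0.39 ± 0.11 and 0.38 ± 0.11 higher on its 2 dimmer ones (adjusted p = 0.0459 and 0.0596).

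Among binding partners and activators, 15 of 26 were measured and 1 was called higher in limma, beside 3.21% of all genes. BSG, the surface glycoprotein basigin known as an inducer of MMPs, rose from 4.73 ± 0.082 to 5.04 ± 0.13 (SD, n = 5 each), by 0.31 ± 0.078 (SE; limma adjusted p = 0.0349), and its call ended in 11 of 15 leave-outs of an array or a pair, namely on removal of SSEA1+ replicate 1, 2, 3 or 5, of SSEA1- replicate 1, 3 or 5, or of the whole pair 1, 2, 3 or 5. CD63, the tetraspanin that binds TIMP1 at the cell surface, read 9.22 ± 0.069 and 9.23 ± 0.099, a difference of -0.0095 ± 0.070 (SE). ITGB1, the integrin chain in the complex with CD63 and in the receptor through which TIMP2 acts on endothelium, read 9.85 ± 0.095 and 9.96 ± 0.097 (adjusted p = 0.427).

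TIMP3 is anchored on heparan sulfate and related chains, and 9 of 24 listed proteoglycans and enzymes of those chains were measured. HS2ST1, a sulfotransferase of heparan sulfate, fell from 4.03 ± 0.12 to 3.59 ± 0.25 (SD, n = 5 each), by 0.45 ± 0.11 (SE; limma adjusted p = 0.032), on its brightest probe set, while its other 3 gave -0.041, -0.0051 and 0.13. That call ended in 8 of 15 leave-outs, namely on removal of SSEA1+ replicate 3, of SSEA1- replicate 1, 3 or 4, or of the whole pair 1, 3, 4 or 5, and with the mean over the gene's probe sets. SDC2, a syndecan with a log2 signal of 9.15 in both fractions, differed by 0.0055 ± 0.13 (SE). The other syndecans did not pass either, SDC1 at 0.27 (adjusted p = 0.257, or 0.0251 with the block) and SDC4 at -0.061; the syndecans were named after their values were seen.

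Among 31 membrane proteins that ADAM10 or ADAM17 release, 14 were measured and none was called in limma, with 4 (28.6%) at an unadjusted p under 0.05, beside 23.8% of all genes, and a median difference of 0.10. With the replicate block 2 were called higher and 1 lower, beside 5.65% and 8.62% of all genes. These were TNFRSF1B and ICAM1 as higher and AREG as lower, at 0.42, 0.26 and -0.39 (limma adjusted p = 0.0261, 0.0442 and 0.0153), named after their values were seen.

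Of 40 listed regulators of TIMP and MMP genes 23 were measured. In limma 1 was called higher and 1 lower, beside 3.21% and 4.18% of all genes. FOXO1, a forkhead factor held in check by AKT, rose from 3.88 ± 0.23 to 4.51 ± 0.098 (SD, n = 5 each), by 0.63 ± 0.10 (SE; limma adjusted p = 0.00445, higher in 5 of 5 pairs). With the mean over its probe sets, the second of which was below background on all arrays, the FOXO1 difference was 0.26 ± 0.070 (SE; adjusted p = 0.0496). IL6, an inflammatory cytokine known to induce TIMP1, fell from 2.32 ± 0.24 to 1.77 ± 0.14 (SD), by 0.55 ± 0.11 (SE; adjusted p = 0.0128, lower in 5 of 5 pairs). The fractions overlapped for IL6, and its call ended without both arrays of replicate 1 and without both of replicate 5. Of the AP-1 factors that act on the TIMP1 promoter, FOS and JUN differed by -0.058 ± 0.15 and -0.089 ± 0.095 (SE), and STAT3 by 0.17 ± 0.068 (adjusted p = 0.185); these 3 were named after their values were seen.

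TIMP genes are nested with synapsin genes, and in RefSeq's gene table for Sscrofa11.1 TIMP1 lies within the span of SYN1, TIMP3 within that of SYN3 and TIMP4 within that of SYN2, while the span of TIMP2 holds CEP295NL. The synapsins, proteins of nerve terminals, were dim, SYN1 at 0.44 ± 0.14 and 0.39 ± 0.29 (SD, n = 5 each) with 6 of 10 arrays above background and SYN2 at 0.23 and 0.27 with 2 of 10. A list of genes that hold or lie beside a TIMP gene was drawn from the human genome. Whether they lie side by side in the pig table was not checked. Of its 6 measured genes 1 was called in limma, beside 7.39% of all genes. ARAF, a RAF-family kinase gene on that list, rose from 1.20 ± 0.068 to 1.61 ± 0.13 (SD, n = 5 each). The rise was 0.42 ± 0.076 (SE, limma adjusted p = 0.00762, higher in 5 of 5 pairs).

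Over all these lists 104 of 220 genes were measured, and 3 were called higher and 3 lower, or 5.77%. Of all 6765 genes read from their brightest probe set 7.39% were called (3.21% higher and 4.18% lower). The median difference was 0.0064 over the lists and -0.0085 over all genes. With the replicate block 7 were called higher and 6 lower, beside 14.3% of all genes (5.65% higher and 8.62% lower). Of the 66 other probe sets of these genes, 3 were called higher and 1 lower in the fit without the block, beside 2.72% and 3.48% of all probe sets. With the poly-A covariate none of the 104 was called in limma, beside 12 of all 24123 probe sets. The calls that ended read 0.56 ± 0.20 for FOXO1, -0.98 ± 0.16 for IL6 and -0.45 ± 0.17 for ADAMTS6 (SE). Those of ARAF, BSG and HS2ST1 read 0.36 ± 0.15, 0.26 ± 0.15 and -0.46 ± 0.22 (SE). The calls of FOXO1, ADAMTS6 and ARAF held in all 15 leave-outs.

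The genes most like each TIMP were sought among 5609 others above background, by Pearson correlation with its brightest probe set over the 10 arrays, as descriptions. Correlations over the arrays as they are hold the difference between the fractions, on which the TIMP genes were chosen. They are high for any gene with a like difference, and nothing is read from them. After the fraction means were removed, TIMP1 was most like AKIRIN2, a nuclear factor of NF-kB signalling, at 0.98, followed by MCM3, CKB, SORD and ASF1B at 0.96 to 0.97. AKIRIN2 also came first over the arrays as they are, at 0.99, followed by USP10, EIF3B, AKT1S1 and GRB2.

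TIMP2 was most like PDZRN3, CLIC2, NKIRAS1, FHL1 and ANO6 within fractions, at 0.94 to 0.97, and like MARVELD1, IGFBP5, HDLBP, LMO4 and ELOVL1 over the arrays as they are, at 0.95 each. For TIMP3 the closest within fractions were TNFSF13, CCS, TCIRG1, ZADH2 and NTRK3, at 0.92 to 0.96, and over the arrays as they are FOXP1, GABARAPL1, ABHD16A, MTFR1L and CDC34, at 0.96 to 0.97. No gene stood on the lists of more than one TIMP. Over the arrays as they are TIMP3 ranked 44th and TIMP2 173rd in likeness to TIMP1, at 0.88 and 0.78. Such ranks follow from the choice of the genes on the fraction difference. With the fraction means removed TIMP3 and TIMP2 ranked 1668th and 3376th, at 0.36 and -0.088. TIMP2 and TIMP3 correlated at 0.86 over the arrays as they are and at 0.29 within fractions. These TIMP2 values come from its brighter probe set and differ on the other. The second TIMP2 probe set correlated within fractions at 0.77 with TIMP1 and at 0.66 with the brighter TIMP3 probe set.

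**Figure D4:**
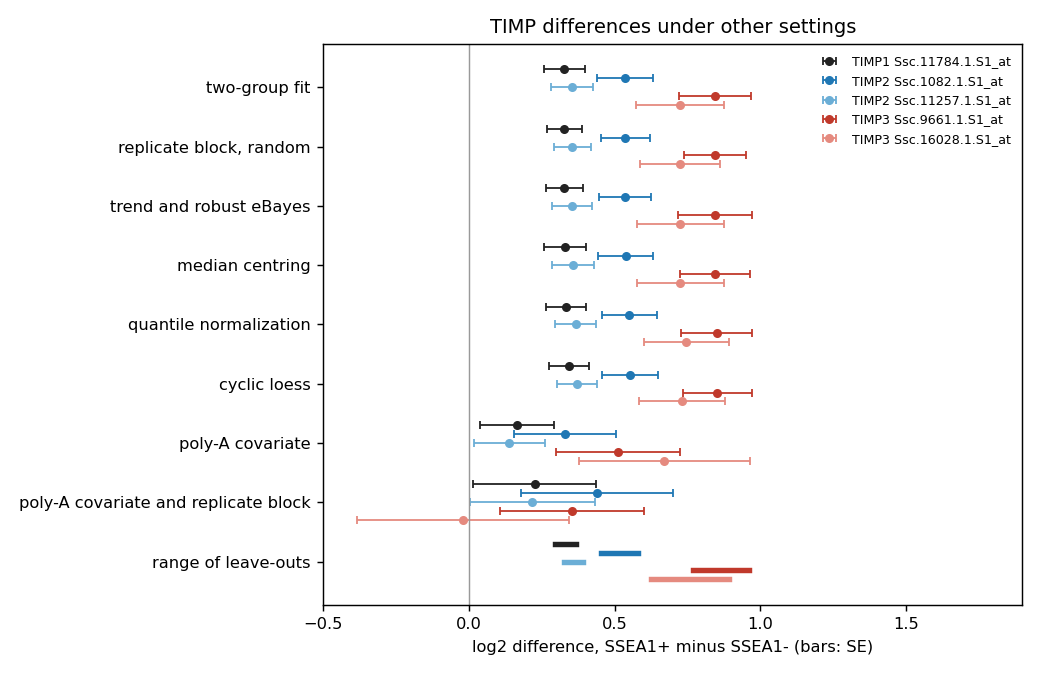
Log2 difference (SSEA1+ minus SSEA1-) of the 5 TIMP probe sets above background under the two-group fit and other settings, with SE as bars (the darker shade of a colour is the brighter probe set), and as thick lines the range over leaving out each array or each pair. The points keep their place under the scalings and move toward 0 with the poly-A covariate, where TIMP1 reads 0.17; with the covariate and the replicate block the second TIMP3 probe set reads -0.020.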

How the data were processed

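Each probe set has a deposited log2 signal. Per the submitters' processing notes, RMA was the authors' method. Its version is not given in the sources used here, nor is its background step. The signal of the hybridisation controls rose by 0.911 to 1.01 per unit of log2 concentration, taking the supplier's concentrations as known. No further normalization was applied. The platform annotation gave 10099 probe sets 1 symbol, 198 several (not named) and 13826 none, and 9989 matched RefSeq's Sscrofa11.1 table by Entrez identifier without a change of symbol. Genes outside the TIMP family were read from their brightest probe set. Groups and replicate numbers come from the sample titles.

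All 24123 probe sets, 188 controls included, were fitted in limma 3.58.1 (R 4.3.3) with lmFit and eBayes, two-sided, with Benjamini-Hochberg adjustment and a threshold of 0.05; calls follow that adjusted p. The procedure was tested on simulated data. The number of arrays limits the precision.

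The replicate number was taken to mark a pair, since each of the 5 sorts gave both fractions per the series text and same-numbered arrays correlated at 0.21, 0.58, 0.35, 0.12 and 0.23 in their deviations from fraction means. Both arrays of replicate 4 and the SSEA1- array of replicate 5 correlated better with another number (0.31, 0.30 and 0.31). The replicate block was an alternative, beside scalings, a filter, the poly-A covariate and leave-outs.

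Genes named were the TIMPs, fixed targets and partners where measured (RECK, LRP1, EFEMP1, FURIN, ADAM12, ADAMTS5 and SYN3 had no probe set here), up to 4 called genes of each list by smallest p, and the 5 genes most like each TIMP. The members and lists were chosen with earlier results of these data known.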

Additional observations from a re-analysis of the deposited data

Results flagged for a closer look

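In 54 groups of 5 arrays checked for a value far from the others, 2 were singled out, where chance alone gives about 1 in 20. CD63 on SSEA1+ replicate 3 read 9.33 where the other SSEA1+ arrays ran from 9.17 to 9.21. One TIMP4 probe set on SSEA1- replicate 4 read 0.23 where the other SSEA1- arrays ran from 0.074 to 0.10, all of them below background. No value of TIMP1, TIMP2 or TIMP3 stood apart in this way.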

How the results depend on the processing

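The direction of the 5 TIMP probe sets above background held under every alternative run except one. With the poly-A covariate the differences were 0.17 for TIMP1, 0.33 and 0.14 for TIMP2 and 0.51 for the brighter TIMP3 probe set, each moved by more than the SD between replicates. With the poly-A covariate and the replicate block they were 0.23 for TIMP1, 0.22 for the second TIMP2 probe set and 0.35 for the brighter TIMP3 probe set, and the second TIMP3 probe set turned to -0.020 ± 0.37 (SE). Leave-outs gave 0.29 to 0.37 for TIMP1, 0.45 to 0.58 and 0.33 to 0.39 for TIMP2, and 0.77 to 0.96 and 0.62 to 0.89 for TIMP3. Taking the mean over its probe sets gave 0.57 for TIMP3. The 3 scalings moved none of them by more than that SD.

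Over all probe sets 1495 were called. The count was 2832 with the replicate block, 2561 with it as a random effect, 12 with the poly-A covariate, 4 with the covariate and the replicate block, 400 and 2430 at thresholds of 0.01 and 0.1, and 384 to 1834 in leave-outs. The 6 pathway genes called became 13 with the replicate block, 10 with it as a random effect, 0 with the poly-A covariate, alone or with the replicate block, and 3 to 8 in leave-outs. Quantile normalization and cyclic loess moved the share of calls that were higher from 41.6% to 51.3% and 50.8% (controls left out). The poly-A level difference of 0.82 no longer passed with the exact permutation kept within pairs (p = 0.0625, the smallest that 5 pairs allow), an alternative chosen after seeing the data. The 3′ minus 5′ difference ran from -0.087 to -0.042 in leave-outs and passed in 1 of 10, without SSEA1- replicate 2, where exact permutation gave p = 0.0476. Dim probe sets limit what can be seen of TIMP4, MMP9 and MMP13, and the third TIMP3 probe set.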
